A study of Mus musculus with 24 samples.

Results

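The comparison concerns inhibition of Bruton's tyrosine kinase (BTK) with ACP196 in Shp2 E76K mice, whose phosphatase Shp2 (gene Ptpn11) is activated by an amino acid change, a model of juvenile myelomonocytic leukemia. Gene expression was measured by RNA-seq of bone marrow mononuclear cells after 3 weeks of treatment, and every mouse, controls included, carried Shp2 E76K. The 6 specimens given ACP196 were set against the 6 not given it, out of 12 specimens in all, with ACP319, which inhibits phosphoinositide 3-kinase (PI3K) delta, as a covariate. Thus ACP196 (specimens 4 to 6) was compared with vehicle (specimens 1 to 3), and ACP196 with ACP319 (the combination, specimens 10 to 12) with ACP319 alone (specimens 7 to 9). These pairs are called the arm without ACP319 and the arm with ACP319, and they share no specimen. A gene moved the same way with and without PI3K delta inhibition when its fitted log2 fold change had the same sign in both arms. The 24 listed samples carry 12 specimen numbers, each on 2 samples, and the count table has 1 column per specimen. Whether a number stands for 1 mouse is not stated, so the spread behind each p-value is that between specimens. The model of the main effect has no term for a difference between the arms, so that difference adds to its spread. The sources used here give no age, sex, dose or driver of the mutant allele.

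BTK is a cytoplasmic kinase of the Tec family that is recruited to the membrane by the lipid product of PI3K. It carries the signal of the B-cell receptor through phospholipase C gamma towards calcium and NF-kB, and B-cell development depends on it. In monocytes, macrophages and mast cells it acts below Fc receptors and Toll-like receptors. ACP196 (acalabrutinib) binds BTK covalently and blocks its enzyme activity, so the level of Btk mRNA is no measure of inhibition.

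Library totals ranged from 8993950 to 22154833 counts, and 12742 of 24421 genes had enough counts to be tested. Of cell type markers, 20 of 20 pro-B and pre-B cell genes, 16 of 16 classical monocyte genes and 17 of 19 T and NK cell genes passed the count filter. So did 16 of 16 mature neutrophil genes, 14 of 14 primary granule genes and 12 of 15 stroma and matrix genes. Passing the filter therefore cannot check the label of mononuclear cells. ACP196 replicate 5 stood apart, with the lowest total, 15.4% of its counts on the ribosomal RNA gene Rn45s (0.203% to 0.773% in the other 11) and 13560 genes with a count. ACP196 replicate 6 has day 30 in its title where the other 11 have day 24, and what was done on that day is not stated. Y-linked transcripts were present in 2 of the 6 specimens given ACP196 and in 3 of the 6 not given it. The dependence of counts on gene length also differed between libraries. Its slope (log2 per doubling of gene length, relative to the mean of all specimens) was -0.153 ± 0.287 with ACP196 and 0.223 ± 0.157 with vehicle, and 0.21 ± 0.104 with the combination and -0.281 ± 0.159 with ACP319 (SD, n = 3 each). It thus ran in opposite directions in the arms, and over both arms it was 0.0289 ± 0.277 with ACP196 and -0.0289 ± 0.31 without it (SD, n = 6 each).

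**Figure D1:**
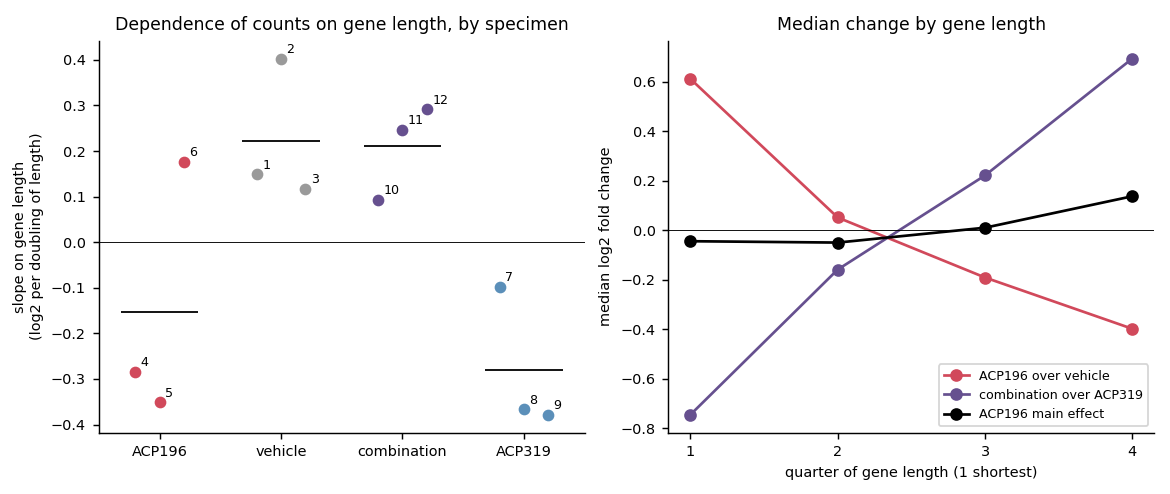
Left, slope of each specimen's counts on gene length in log2 per doubling of length, with specimen numbers and group means as lines. Right, median log2 fold change in each of 4 classes of gene length for each arm and for the main effect. The lines of the arms cross, from 0.611 to -0.398 without ACP319 and from -0.745 to 0.693 with it, while the main effect stays between -0.05 and 0.137.

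No gene passed the test of the ACP196 main effect. With edgeR's quasi-likelihood test and Benjamini-Hochberg adjustment, 0 of 12742 genes were called higher and 0 lower (0% each), the smallest adjusted p was 0.999 and the median standard error of a log2 difference was 0.301. Every gene named below as higher or lower therefore did not pass at the adjusted threshold of 0.05, and its p is given unadjusted. At an unadjusted p under 0.05 there were 150 genes (1.18%), 93 higher (0.73%) and 57 lower (0.447%), and 149 of the 150 had the same sign in both arms (1.17% of all tested genes). The 1.18% is below the share that a p under 0.05 gives where no gene changes. Because the model has no term for a difference between the arms, it favours a shared sign at small p, so the 149 are no separate finding. With a mean fitted per group, 264 genes reached that p and 203 of them had the same sign. DESeq2 also called 0 genes, with 237 at an unadjusted p under 0.05. Leaving out 1 specimen moved the 150 by over 1.5 times in 3 cases: 687 without ACP196 replicate 4, 340 without vehicle replicate 2 and 92 without vehicle replicate 1. Limma voom with specimen weights called 7 higher and 11 lower, of which 14 had the same sign in both arms. The higher ones with a mean above 2 log2 CPM (counts scaled to a fixed library total) were Scd1, Ms4a1, Col1a2, Capn5 and Spib, and the lower ones Cd14, Cxcl16, Fcgr4, Igtp, Lpl, Rhoc and Wfdc17. Of these, Capn5, Spib and Rhoc had opposite signs in the arms. Their voom changes without and with ACP319 were -0.04 and 0.96, -0.04 and 0.56, and 0.17 and -1.13. Voom had 3056 genes at an unadjusted p under 0.05, and 566 of them had the same sign in both arms.

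A shared direction was the minority pattern. Of all tested genes 10.6% were higher with ACP196 in both arms and 10.9% lower in both, 21.4% in all. The other genes went opposite ways: 38.3% were higher with ACP196 than with vehicle and lower with the combination than with ACP319, and 40.3% the reverse. Across genes the log2 fold changes of the arms had Pearson's r = -0.691 and Spearman's rho = -0.727, as a description over genes that share libraries. The fold changes had r = -0.502 with log2 gene length in the arm without ACP319 and r = 0.681 in the arm with it. The main effect kept r = 0.208 with log2 gene length, and r = 0.511 when ACP196 replicate 5 was left out. With a gene length offset per library the r between arms was -0.562 and 26.2% of genes had the same sign. Without ACP196 replicates 4 and 5 and ACP319 replicates 8 and 9, the 4 specimens with the lowest slopes, r was -0.145 and 41.9% had the same sign. The part of gene length in these values was not tested further.

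**Figure D2:**
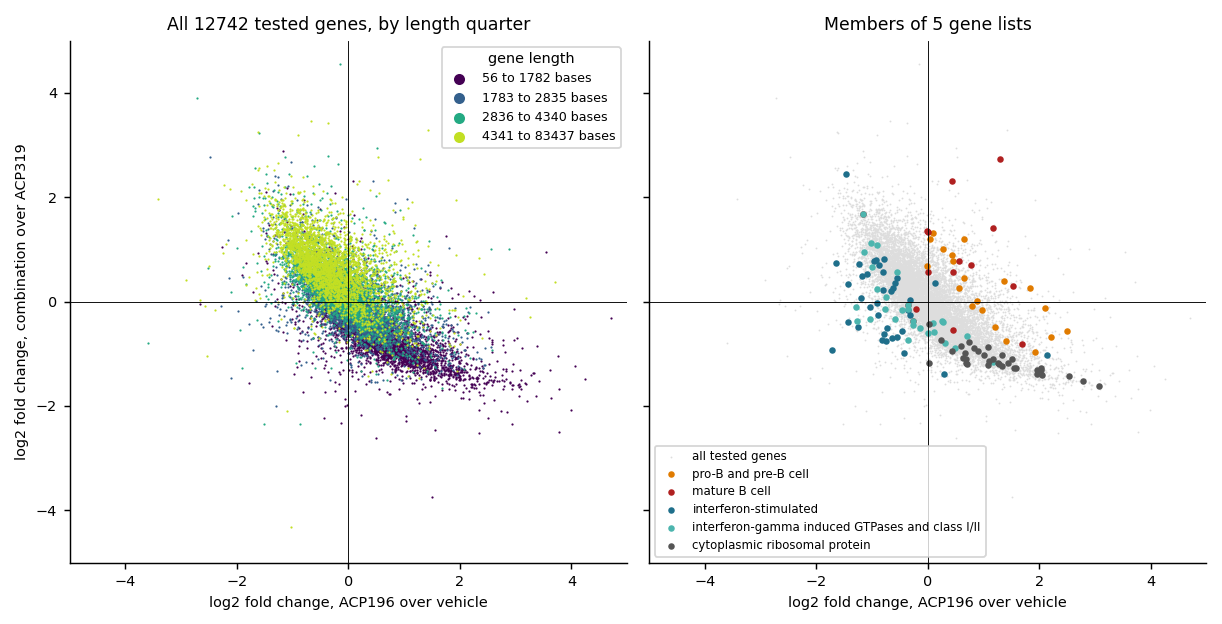
Each point is a tested gene, with its log2 fold change of ACP196 over vehicle on the x axis and of the combination over ACP319 on the y axis. On the left genes are coloured by class of length and on the right the members of 5 lists are marked. Most genes lie in the upper left and lower right, where the arms have opposite signs, and 7 genes lie beyond the plotted range of 5 log2 units.

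Within the single arms, 0 genes passed at an adjusted p of 0.05 for ACP196 against vehicle (0%) and 0 for the combination against ACP319 (0%), while 24.7% and 28.7% had an unadjusted p under 0.05. The test of the difference between the arms called 3522 genes (27.6%), and 3519 of these had opposite signs in the arms (27.6%). That count was 1 with the gene length offset, 0 without combination replicate 11 or 12, 1 without vehicle replicate 2 or ACP319 replicate 8 or 9, 539 with the offset and without ACP196 replicate 5, and 5692 without ACP196 replicate 6. It was 2246 without vehicle replicate 1 and 2167 without ACP196 replicate 4.

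Transcripts of the drug targets had small main effects. Btk, the target of ACP196 (chrX:134542341-134583140 in GRCm38), had 107, 83.8 and 98.9 normalised CPM with ACP196, against 108, 88.5 and 104 with vehicle, and 94.3, 86.5 and 89.9 with the combination, against 105, 102 and 107 with ACP319. The groups overlapped in the arm without ACP319 and not in the other, and the main effect was -0.13 ± 0.15 (log2, SE; unadjusted p = 0.394). Pik3cd, the target of ACP319, had a main effect of -0.02 ± 0.23, with -0.58 in the arm without ACP319 and 0.55 in the arm with it. Its arms differed by 1.13 (edgeR adjusted p = 0.0266), and by 0.0774 at the lowest among the alternatives. Ptpn11 had a main effect of -0.13 ± 0.37, with -0.84 without ACP319 and 0.59 with it (adjusted p of the difference 0.0786).

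The strictest form of a shared direction, no overlap between specimens given ACP196 and not given it in both arms, held for 14 genes (0.11% of those tested), 6 higher (0.0471%) and 8 lower (0.0628%). The 0.11% is below the share that a random order of specimens gives in independent arms, so the 14 genes are described only and are no separate finding. No overlap in opposite directions was found for 1440 genes (11.3%), and in single arms for 18.5% of genes with ACP196 against vehicle and 51.1% with the combination against ACP319. The higher genes were Cr2, Serpinh1, Zbtb10, Mapk11, Nmt2 and 1700025G04Rik, and the lower ones Serping1, Map6, Trim9, Rnf114, Bak1, St6galnac4, Szrd1 and Csk. Among these, Nmt2, an N-myristoyltransferase that attaches a lipid to proteins, had 18.2, 35.3 and 17.7 CPM with ACP196, against 13.1, 17.1 and 13.5 with vehicle. With the combination it had 19.6, 19.3 and 21.6 CPM, against 16.3, 17.4 and 17.6 with ACP319. Its main effect was 0.46 ± 0.21 (unadjusted p = 0.0464).

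The lower genes of this kind with at least 2 log2 CPM had small differences. Csk, the kinase that holds Src family kinases inactive and so stands above BTK's own activators, had 246, 166 and 242 CPM with ACP196, against 254, 250 and 252 with vehicle. With the combination it had 219, 212 and 217 CPM, against 227, 240 and 238 with ACP319. All 6 values with ACP196 thus lay below those of their own arm, with a main effect of -0.16 ± 0.16 (unadjusted p = 0.327). Bak1, a BCL2 family protein that permeabilises mitochondria in cell death, had 146, 110 and 148 CPM with ACP196, against 175, 194 and 153 with vehicle. It had 146, 127 and 137 CPM with the combination, against 156, 148 and 154 with ACP319, and a main effect of -0.26 ± 0.16. The main effects of Rnf114 (a ubiquitin ligase), St6galnac4 (a sialyltransferase) and Szrd1 were -0.35, -0.23 and -0.23, and unadjusted p-values of the 5 lower genes with at least 2 log2 CPM lay between 0.116 and 0.327. In Rnf114, Bak1, Szrd1 and Csk the lowest ACP196 value was that of replicate 5, and without it the main effects of Rnf114, Szrd1 and Csk were -0.20, -0.15 and -0.09 and that of Nmt2 was 0.27. With the gene length offset the shared direction was lost in Nmt2, Bak1 and St6galnac4. Their changes without and with ACP319 were then 1.11 and -0.22, -0.45 and 0.04, and 0.03 and -0.53. Rnf114 stayed lower in both arms, at -0.38 and -0.32. Szrd1 and Csk kept the sign but had almost no change without ACP319 (-0.012 and -0.011), and -0.45 and -0.32 with it.

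B-lineage transcripts were among the clearest higher values in both arms. Of 16 tested mature B cell genes, 9 (56.2%) were higher in both arms and 3 (18.8%) lower in both. Over all tested genes these shares were 10.6% and 10.9%. An unadjusted p under 0.05 was reached by 5 members, all higher, beside 0.73% of all tested genes. The median log2 difference of the list was 0.59 in the main effect, 0.44 without and 0.63 with ACP319, against 0.0175, -0.0184 and 0.0166 over all tested genes. Of 20 tested pro-B and pre-B cell genes, 11 (55%) were higher in both arms and 0 lower in both, with medians of 0.61, 0.83 and 0.25, and 3 had an unadjusted p under 0.05. In bulk RNA, more cells of a type and more RNA per cell cannot be told apart.

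Ms4a1 encodes CD20, the surface protein of mature B cells that is the target of rituximab (chr19:11250603-11266151). It had 6.42, 10.1 and 30.1 CPM with ACP196, against 7.16, 6.37 and 7.43 with vehicle. It had 23.5, 14.8 and 38.7 CPM with the combination, against 10.7, 5.54 and 12.8 with ACP319. All 3 combination values lay above all 3 ACP319 values, while ACP196 replicate 4 lay within the vehicle values and replicate 6 was highest in its arm. The main effect was 1.29 ± 0.37 on the log2 scale (unadjusted p = 0.00442, edgeR adjusted p = 0.999), with 1.17 without and 1.41 with ACP319.

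Cr2 encodes complement receptor 2 (CD21), a co-receptor of the B-cell receptor on mature B cells (chr1:195136811-195176715). It had 1.11, 2.22 and 2.23 CPM with ACP196, against 0.716, 0.898 and 0.605 with vehicle. It had 1.61, 1.74 and 6.13 CPM with the combination, against 0.721, 0.468 and 0.19 with ACP319. The groups did not overlap in either arm, at low levels, and its p was the smallest of all genes (main effect 2.01 ± 0.47, unadjusted p = 0.00097). Tnfrsf13c, the receptor for the B-cell survival factor BAFF, had 5.95, 14.1 and 13.8 CPM with ACP196, against 4.11, 2.78 and 4.79 with vehicle, and 8.26, 6.56 and 10.1 CPM with the combination, against 4.84, 5.75 and 9.69 with ACP319. It did not overlap without ACP319 and overlapped with it (main effect 0.91 ± 0.33, unadjusted p = 0.0162).

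Bank1, a B-cell scaffold that links the B-cell receptor to calcium release, had a main effect of 0.74 ± 0.26 (unadjusted p = 0.0139). Its highest ACP196 value, 42.4 CPM in replicate 5, stood against 14.9 and 17.9 in the other ACP196 specimens and 12.8 to 15.6 with vehicle, while the combination had 13.5 to 21.4 and ACP319 8.11 to 11.9. Fcer2a, the low-affinity IgE receptor CD23 of mature B cells, had 1.19, 3.74 and 7.35 CPM with the combination, against 1.02, 0.401 and 1.01 with ACP319. In the other arm it overlapped, with 0.606 to 4.97 CPM with ACP196 and 1.66 to 2.41 with vehicle (main effect 1.34 ± 0.57, unadjusted p = 0.0366). These 5 mature B cell genes were singled out after their values were seen, except Cr2 and Ms4a1, which the naming rule took.

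Among early B-lineage genes, Ebf1, a transcription factor that commits progenitors to the B lineage (chr11:44618100-45008096), had 9.88, 56.8 and 33.8 CPM with ACP196, against 7.33, 10.5 and 20.4 with vehicle. With the combination it had 11.8, 18.3 and 15.3 CPM, against 10.2, 13.4 and 10.8 with ACP319. Values overlapped in both arms and ACP196 replicates 5 and 6 were highest, for a main effect of 0.89 ± 0.39 (unadjusted p = 0.0417) that was 0.57 without replicate 5. With the gene length offset the changes of Ebf1 had opposite signs, 1.80 without ACP319 and -0.22 with it. Il7r, the receptor for interleukin 7 that drives the growth of pro-B cells, had 7.22, 21.6 and 20.9 CPM with ACP196, against 8.81, 12.5 and 15.1 with vehicle, and 13, 14.6 and 17.8 CPM with the combination, against 9.93, 6.08 and 8.17 with ACP319. It overlapped only in the arm without ACP319 (main effect 0.67 ± 0.28, unadjusted p = 0.0319). Akap12, a scaffold of protein kinases, had a main effect of 0.92 ± 0.41 (unadjusted p = 0.0432) and was singled out after its values were seen.

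The B-lineage counts depended on ACP196 replicate 6, the specimen with the other day in its title. Without it, 5 of 16 mature B cell genes and 6 of 20 pro-B and pre-B cell genes were higher in both arms, with main-effect medians of 0.336 and 0.313, and 4 and 0 members had an unadjusted p under 0.05. Over all tested genes 9.17% were then higher in both arms. Without ACP196 replicate 5 the counts were 10 and 11, and with the gene length offset 10 and 16, beside 10.1% and 12.3% of all tested genes. Without ACP196 replicate 4, 8 mature B cell genes had an unadjusted p under 0.05. The part of replicate 6 in the result was not tested beyond this. Below the B-cell receptor, Blnk, the adaptor that brings phospholipase C gamma to BTK, had a main effect of 0.41 ± 0.23 (unadjusted p = 0.0903).

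**Figure D3:**
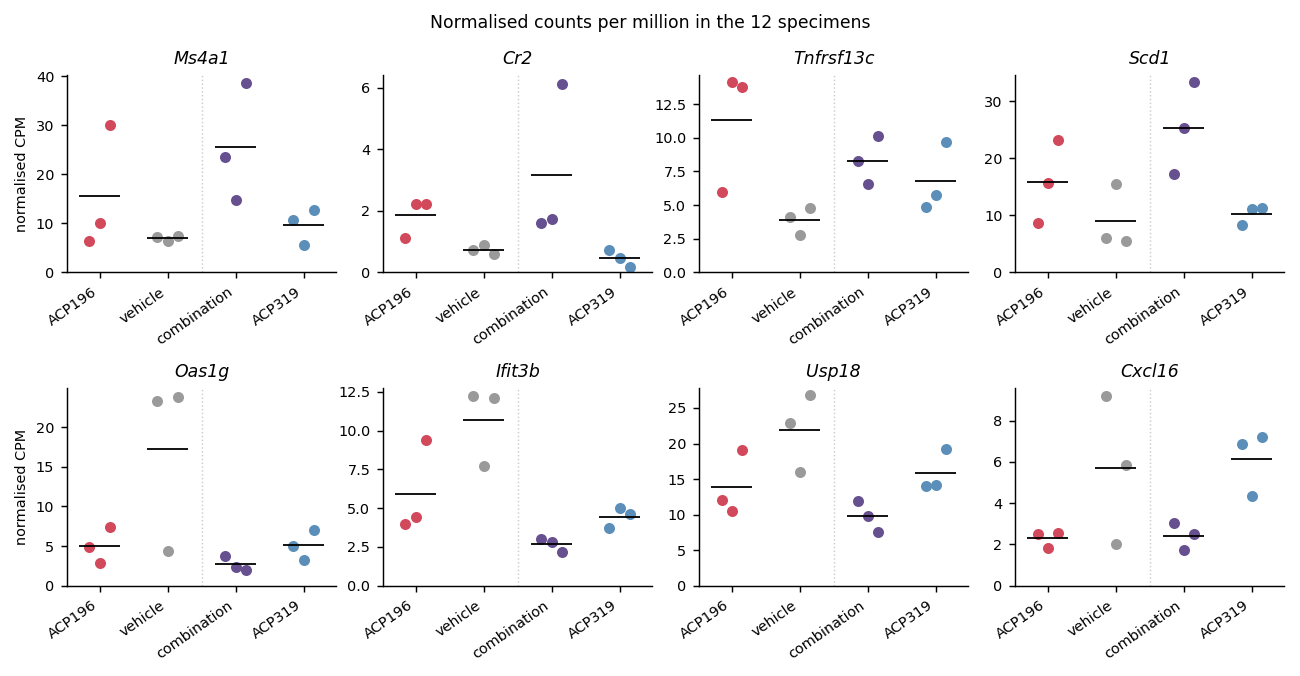
Normalised CPM (linear axis from 0) of 8 genes in the 12 specimens, in 4 groups of 3 with the mean as a line. In the upper row the mean is higher with ACP196 than with vehicle and with the combination than with ACP319, and in the lower row it is lower in both; Cr2 is without overlap in both arms.

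Interferon-stimulated transcripts were lower in both arms for a large share of the list. Of 37 tested genes, 16 (43.2%) were lower with ACP196 in both arms and 1 (2.7%) higher in both, beside 10.9% and 10.6% of all tested genes. Unadjusted p under 0.05 was reached by 11, all lower, beside 0.447% of all tested genes lower at that p. The 11 were Oas1g, Ifit3b, Usp18, Zbp1, Rtp4, Oas1a, Ifit3, Oasl1, Irf7, Phf11d and Ifit1. The naming rule took the first 2 of these, and the other 9 were singled out after their values were seen. The median log2 difference was -0.34 in the main effect and -0.80 in the arm without ACP319, and 0.04 in the arm with it, so 18 members were lower without ACP319 and higher with it. Type I interferons act through a transcription factor complex that binds the interferon-stimulated response element (ISRE) in the promoters of these genes.

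To show the element that many of the lower genes carry, promoters of 3 named genes are printed from RefSeq (build GRCm38.p6), from 250 bases before to 50 after the start of the gene, 5′ to 3′ on the strand of the gene. Capitals mark matches to the ISRE core GAAANNGAAA on either strand. Oas1g (chr5:120887564-120887863, minus strand) holds 2 matches that overlap, starting at -18 and -12 from the start. Ifit3b (chr19:34607707-34608006, plus strand) holds 2 on the opposite strand, at -188 and -154, and Igtp (chr11:58199306-58199605, plus strand) holds 1 at -34.
Oas1g: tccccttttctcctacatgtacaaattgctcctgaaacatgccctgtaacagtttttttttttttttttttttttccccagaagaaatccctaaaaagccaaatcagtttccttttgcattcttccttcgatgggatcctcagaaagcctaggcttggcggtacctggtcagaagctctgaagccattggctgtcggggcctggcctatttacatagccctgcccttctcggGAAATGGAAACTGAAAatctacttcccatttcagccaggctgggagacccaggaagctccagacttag
Ifit3b: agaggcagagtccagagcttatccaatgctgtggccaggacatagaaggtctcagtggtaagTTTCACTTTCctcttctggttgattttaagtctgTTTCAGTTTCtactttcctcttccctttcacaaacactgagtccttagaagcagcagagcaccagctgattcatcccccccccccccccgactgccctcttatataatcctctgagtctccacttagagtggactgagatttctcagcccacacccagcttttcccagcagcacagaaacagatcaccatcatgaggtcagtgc
Igtp: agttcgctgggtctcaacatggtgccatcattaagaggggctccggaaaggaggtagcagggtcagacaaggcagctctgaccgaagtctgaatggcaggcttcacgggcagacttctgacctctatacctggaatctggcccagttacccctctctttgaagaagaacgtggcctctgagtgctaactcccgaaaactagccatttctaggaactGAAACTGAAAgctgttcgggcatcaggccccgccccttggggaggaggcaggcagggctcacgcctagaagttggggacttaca

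Of 27025 promoters of this length in the RefSeq table, 3.99% hold the ISRE core. Promoters were matched for 27 of the 37 interferon-stimulated genes, and 17 of them (63%) hold it. Among members lower in both arms 6 of 11 matched promoters hold it, and among members of opposite sign 10 of 15, so the core was found in both kinds. It was found in 10 of 20 matched promoters of the interferon-gamma list, in 1 of 17 of the pro-B and pre-B cell list and in 0 of 11 of the mature B cell list. The octamer ATGCAAAT, a motif of B-cell promoters, searched on both strands, was in 1.97% of all promoters, in 2 of 17 pro-B and pre-B cell promoters and in 0 of 11 mature B cell promoters. These matches are letters in a window and were not tested as sites of binding.

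Oas1g is a member of the 2′-5′ oligoadenylate synthetases, enzymes that activate RNase L on sensing double-stranded RNA. It had 4.88, 2.83 and 7.43 CPM with ACP196, against 23.3, 4.37 and 23.9 with vehicle. It had 3.7, 2.36 and 1.96 CPM with the combination, against 5.01, 3.27 and 7.03 with ACP319. Vehicle replicates 1 and 3 stood far above all other specimens, vehicle replicate 2 lay among the ACP196 values, and the groups overlapped in both arms (main effect -1.34 ± 0.42, unadjusted p = 0.00683). Oas1g may share reads with the related gene Oas1a, and Ifit3b with Ifit3, so the values of these genes are uncertain.

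Ifit3b, of the family of interferon-induced proteins with tetratricopeptide repeats, had 3.98, 4.44 and 9.38 CPM with ACP196, against 12.2, 7.72 and 12.1 with vehicle. It had 2.99, 2.82 and 2.18 CPM with the combination, against 3.73, 5.01 and 4.62 with ACP319. The combination values lay below all ACP319 values, and only ACP196 replicate 6 overlapped vehicle, for nearly equal changes in the arms (-0.82 and -0.74; main effect -0.79 ± 0.25, unadjusted p = 0.0077). Usp18, the protease that removes ISG15 and dampens interferon signalling, had 12.1, 10.5 and 19.1 CPM with ACP196, against 22.9, 16 and 26.9 with vehicle. It had 11.9, 9.84 and 7.53 CPM with the combination, against 14, 14.2 and 19.2 with ACP319, with changes of -0.64 and -0.70 in the arms (main effect -0.67 ± 0.22, unadjusted p = 0.00857).

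Rtp4, an interferon-induced chaperone of membrane receptors, had changes of -0.74 without and -0.75 with ACP319 (main effect -0.75 ± 0.27, unadjusted p = 0.0159). Its ACP196 values of 31.3 to 41.6 CPM lay within the vehicle range of 25.4 to 89.9, while its combination values of 17.9 to 27.1 lay below all ACP319 values (29.4 to 42.6). Irf7, the factor that amplifies type I interferon production, had 32.4, 41.8 and 57.7 CPM with ACP196, against 73.7 to 109 with vehicle, without overlap. In the arm with ACP319 its change was -0.10, with overlap (main effect -0.57 ± 0.24, unadjusted p = 0.0363). Zbp1 (a sensor of Z-form nucleic acid), Oas1a, Oasl1, Ifit1, Ifit3 and Phf11d had main effects between -0.57 (Oasl1) and -0.92 (Phf11d).

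In contrast to the B-lineage lists, the interferon counts moved little with the specimens that stood apart: 17 members were lower in both arms without ACP196 replicate 5 and 16 without replicate 6, with 10 and 11 members at an unadjusted p under 0.05. Over all 12 ways of leaving out 1 specimen the count lower in both arms was 13 to 18. The count at an unadjusted p under 0.05 was 6 without vehicle replicate 1, 5 without vehicle replicate 3 and 6 without ACP196 replicate 4. With the gene length offset 23 of 37 (62.2%) were lower in both arms, beside 13.9% of all tested genes. Without ACP196 replicates 4 and 5 and ACP319 replicates 8 and 9, 17 of 37 (45.9%) were, beside 20.8% of all tested genes, and 1 member had an unadjusted p under 0.05.

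Interferon-gamma induced GTPases and antigen presentation genes had 13 of 29 members (44.8%) lower in both arms and 0 higher in both. Over all tested genes 10.9% were lower in both and 10.6% higher in both. The medians were -0.24 in the main effect, -0.36 without and -0.33 with ACP319. Igtp, one of these GTPases (chr11:58199556-58207592), had 28.6, 15.9 and 26.8 CPM with ACP196, against 30.4, 25.5 and 36.1 with vehicle. It had 23, 18.7 and 21.3 CPM with the combination, against 43.5, 27.2 and 34.6 with ACP319. The groups overlapped only without ACP319 (main effect -0.55 ± 0.21, unadjusted p = 0.0186), and Igtp was the only member of the list with an unadjusted p under 0.05.

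**Figure D4:**
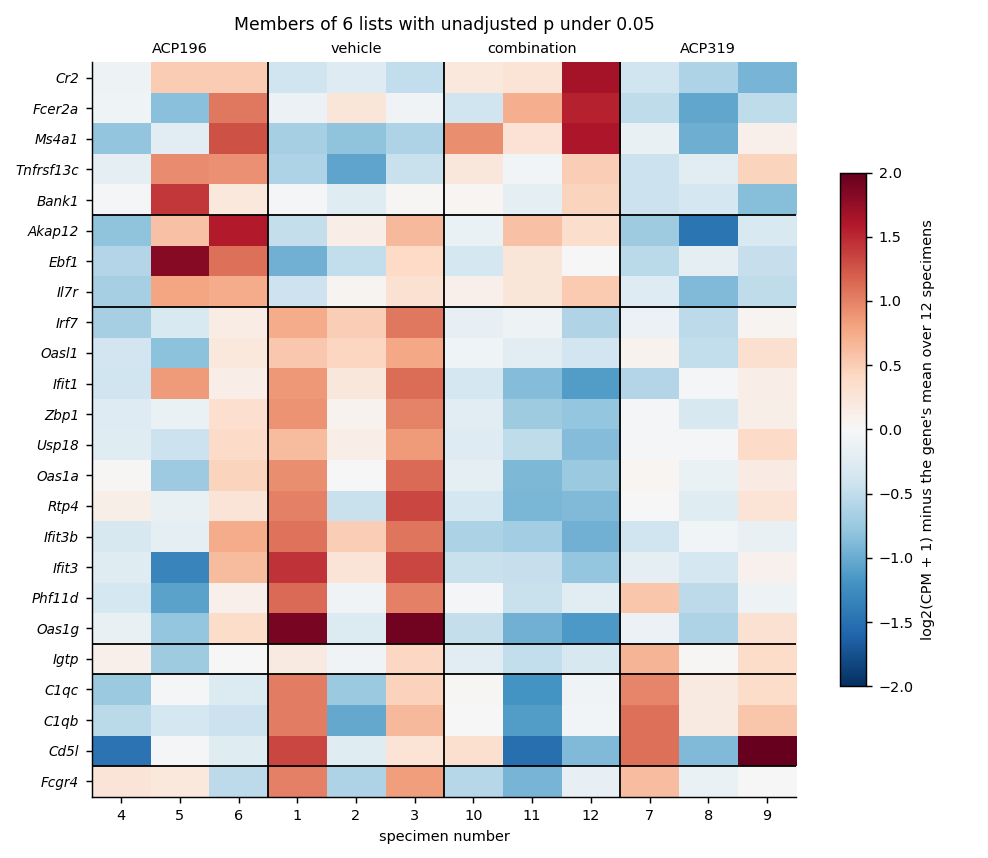
Rows are the 24 members of 6 lists with an unadjusted p under 0.05 (in order the mature B cell, pro-B and pre-B cell, interferon-stimulated, interferon-gamma, macrophage and Fc receptor lists, parted by lines), columns the 12 specimens by group. Colour gives log2(CPM + 1) minus the gene's mean, with 1 value beyond the limit of 2 drawn at the end of the scale. Vehicle specimens 1 and 3 are high for the interferon-stimulated rows and the combination specimens mostly low, and ACP196 specimen 6 is above the mean in all 8 B-lineage rows.

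Of 14 tested macrophage genes 6 (42.9%) were lower in both arms, 1 higher in both and the rest of opposite sign, with a main-effect median of -0.28. An unadjusted p under 0.05 was reached by 3, all lower. Of all tested genes 10.9% were lower in both arms, 10.6% higher in both and 0.447% lower at that p. Of 16 classical monocyte genes 4 were lower in both arms, 1 higher in both and the rest of opposite sign (medians -0.04 in the main effect, -0.28 without and 0.09 with ACP319), and of 12 nonclassical monocyte genes 2 were lower in both, 0 higher in both and the rest of opposite sign. C1qb, a chain of complement C1q made by macrophages (chr4:136880145-136886177), had 48.3, 54.7 and 51.9 CPM with ACP196, against 144, 34.2 and 111 with vehicle. It had 69.9, 32 and 68 CPM with the combination, against 152, 79.4 and 104 with ACP319. Vehicle replicate 2 lay below all ACP196 values, and the combination did not overlap ACP319 (changes -0.90 and -0.98; main effect -0.94 ± 0.32, unadjusted p = 0.0125). C1qc, singled out after its values were seen, had a main effect of -0.82 ± 0.31 (unadjusted p = 0.0219). Cd5l, a secreted protein of tissue macrophages, had -1.65 ± 0.59 (unadjusted p = 0.0158), with 1.43 to 5.65 CPM with ACP196, against 4.7 to 16.1 with vehicle, and 1.38 to 7.45 with the combination, against 2.67 to 29.6 with ACP319.

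Cd14, the monocyte co-receptor that hands lipopolysaccharide to Toll-like receptor 4, had 24.1, 12.3 and 13.2 CPM with ACP196, against 28.4, 13.3 and 32.8 with vehicle. It had 12.3, 10.2 and 12.8 CPM with the combination, against 34.3, 16.1 and 21.9 with ACP319. The combination values lay below all ACP319 values (main effect -0.81 ± 0.28, unadjusted p = 0.0135). Pparg, a nuclear receptor of lipid-handling macrophages and listed here with nonclassical monocyte genes, had 2.55, 2.83 and 3.89 CPM with ACP196, against 8.18, 3.59 and 8.29 with vehicle. It had 3.37, 2.51 and 3.73 CPM with the combination, against 5.81, 3.47 and 5.38 with ACP319, with overlap in both arms (main effect -0.85 ± 0.27, unadjusted p = 0.00744).

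Fc receptors signal through Syk and BTK in myeloid cells, and 9 of 23 tested genes of Fc and paired immunoglobulin-like receptors (39.1%) were lower in both arms and 0 higher in both. The shares over all tested genes were 10.9% and 10.6%. Fcgr4, an activating receptor for IgG on monocytes and neutrophils, had 120, 116 and 69.7 CPM with ACP196, against 202, 65 and 180 with vehicle. It had 67, 52.3 and 89.5 CPM with the combination, against 155, 91 and 101 with ACP319. The groups overlapped without ACP319 and did not with it (main effect -0.64 ± 0.29, unadjusted p = 0.0447). Fcgr1, the high-affinity IgG receptor, had a main effect of -0.70 ± 0.35 (unadjusted p = 0.0694), lower in both arms. Without ACP196 replicate 5 or 6, 10 and 9 members of the Fc receptor list were lower in both arms, and 7 and 6 members of the macrophage list.

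The gene with the second smallest p was Cxcl16, a chemokine and scavenger receptor of macrophages and dendritic cells, singled out after its values were seen. It had 2.5, 1.82 and 2.54 CPM with ACP196, against 9.21, 2.04 and 5.83 with vehicle. It had 3.04, 1.74 and 2.51 CPM with the combination, against 6.87, 4.34 and 7.22 with ACP319. Only vehicle replicate 2 overlapped, and the changes in the arms were -1.28 and -1.34 (main effect -1.31 ± 0.33, unadjusted p = 0.00151). Cd83, a surface protein of activated antigen-presenting cells and an NF-kB target, had a main effect of -0.72 ± 0.30 (unadjusted p = 0.0317). Bcl2a1d, an NF-kB induced survival gene of the BCL2 family with near-identical copies that may share its reads, had -1.18 ± 0.45 (unadjusted p = 0.0213). Apoe, a lipid carrier secreted by macrophages and likewise singled out, had -0.65 ± 0.27 (unadjusted p = 0.0312).

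Of 14 tested primary granule genes 4 were lower in both arms and the rest of opposite sign, and of 16 mature neutrophil genes 3 were lower in both and the rest of opposite sign. Of 13 tested secondary granule genes of immature neutrophils, 8 (61.5%) were lower in both arms and 0 higher in both, with medians of -0.31 in the main effect, -0.17 without and -0.45 with ACP319. Among all tested genes 10.9% were lower in both arms and 10.6% higher in both. Orm1, an acute-phase protein of the granules, had 51.3, 34.5 and 31.1 CPM with ACP196, against 50.2, 21.5 and 59.8 with vehicle, and 26.8, 12.3 and 14.3 CPM with the combination, against 42.6, 55.4 and 62.1 with ACP319. Its lower values were thus mainly those of the combination (main effect -0.88 ± 0.35, unadjusted p = 0.0277). The list's count was 4 of 13 without ACP196 replicate 5 and 7 without replicate 6. With the gene length offset it was 5 of 13 (38.5%), and the median with ACP319 was -0.037. Of primary granule genes 7 (50%) were then lower in both arms and of mature neutrophil genes 6 (37.5%), beside 13.9% of all tested genes. The secondary granule list thus did not stand apart from the other neutrophil lists with the offset. Dendritic cell genes had 7 of 15 members (46.7%) higher in both arms and 0 lower in both, with a main-effect median of 0.24 and 0 members with an unadjusted p under 0.05. Without ACP196 replicate 6 the count was 4.

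Scd1, the desaturase that makes monounsaturated fatty acids (chr19:44394450-44407709), had 8.66, 15.8 and 23.3 CPM with ACP196, against 5.95, 15.6 and 5.49 with vehicle. It had 17.3, 25.4 and 33.3 CPM with the combination, against 8.36, 11.1 and 11.2 with ACP319. The combination values all lay above the ACP319 values (main effect 1.07 ± 0.33, unadjusted p = 0.00603), whereas the list of sterol and fatty acid synthesis had 4 of 25 members higher in both arms (2 without ACP196 replicate 4) and a median of -0.00467. Trib2, a pseudokinase and a target of FOXO factors, had 7.17, 11.3 and 9.93 CPM with ACP196, against 3.22, 6.17 and 4.28 with vehicle. It had 7.74, 10.1 and 11 CPM with the combination, against 7.38, 6.21 and 7.98 with ACP319, with overlap only in the arm with ACP319 (main effect 0.73 ± 0.23, unadjusted p = 0.00753). With the gene length offset the changes of Trib2 were 1.38 without ACP319 and 0.02 with it.

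Some matrix genes of stromal cells were also among the higher ones. Col1a2, a chain of type I collagen, had 3.82, 1.01 and 7.75 CPM with ACP196, against 1.88, 5.47 and 1.81 with vehicle. It had 18.7, 65.8 and 24.1 CPM with the combination, against 6.36, 12.6 and 6.65 with ACP319. The combination values were above those of all 9 other specimens, and the arm without ACP319 overlapped (main effect 1.33 ± 0.53, unadjusted p = 0.0263). Sparc, a collagen-binding matrix protein, had 4.41, 6.66 and 4.69 CPM with ACP196, against 2.01, 1.8 and 1.69 with vehicle, and 9.12, 21.2 and 8.53 CPM with the combination, against 7.38, 14.8 and 7.98 with ACP319 (main effect 0.91 ± 0.33, unadjusted p = 0.0157). Its groups overlapped only in the arm with ACP319. Of 12 tested stroma and matrix genes, 5 were higher in both arms and 2 lower in both, and 2 were higher in both without ACP196 replicate 6 and 3 without combination replicate 11. Over all tested genes and all 12 specimens 10.6% were higher in both arms and 10.9% lower in both. The medians of the stroma and matrix list were 0.20 in the main effect, -0.095 without ACP319 and 0.36 with it, so the list as a whole was higher only in the arm with ACP319.

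Among all 93 higher genes with an unadjusted p under 0.05, ACP196 replicate 5 was the highest of the 12 specimens for 53 (57%), and the median gene length was 5094 bases, against 2835 over all tested genes. Among the 57 lower genes it was the lowest specimen for 19 (33.3%), and the median length was 1874 bases. Without ACP196 replicate 5, 83 of the 150 genes kept an unadjusted p under 0.05 in the same direction.

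The pathway of the target itself did not move one way. Of 34 tested genes of the chain from the B-cell receptor through BTK, 5 were higher in both arms (3 without ACP196 replicate 6), 3 lower in both, 24 lower with ACP196 than with vehicle and higher with the combination than with ACP319, and 2 the reverse. Its medians were 0.04 in the main effect, -0.55 without and 0.65 with ACP319. The same held for genes of class I PI3K, AKT and mTOR (27 tested, medians -0.01, -0.62 and 0.66) and of Toll-like receptors and their adaptors (24 tested, medians -0.10, -0.66 and 0.43). The reverse order was found for cytoplasmic ribosomal proteins, all 34 of which were higher with ACP196 than with vehicle and lower with the combination than with ACP319 (medians 0.03, 1.13 and -1.18). These lists differ in gene length, with a median of 5404 bases for the PI3K list and 833.5 for ribosomal proteins. With the gene length offset the medians without and with ACP319 were 0.382 and -0.281 for ribosomal proteins and -0.224 and 0.121 for the PI3K list. They were then -0.245 and 0.266 for the B-cell receptor chain and -0.658 and 0.321 for Toll-like receptors and adaptors. Of 22 tested glycolysis genes 7 (31.8%) were lower in both arms and 3 higher in both, with a main-effect median of -0.22. Among all tested genes 10.9% were lower in both arms and 10.6% higher in both.

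**Figure D5:**
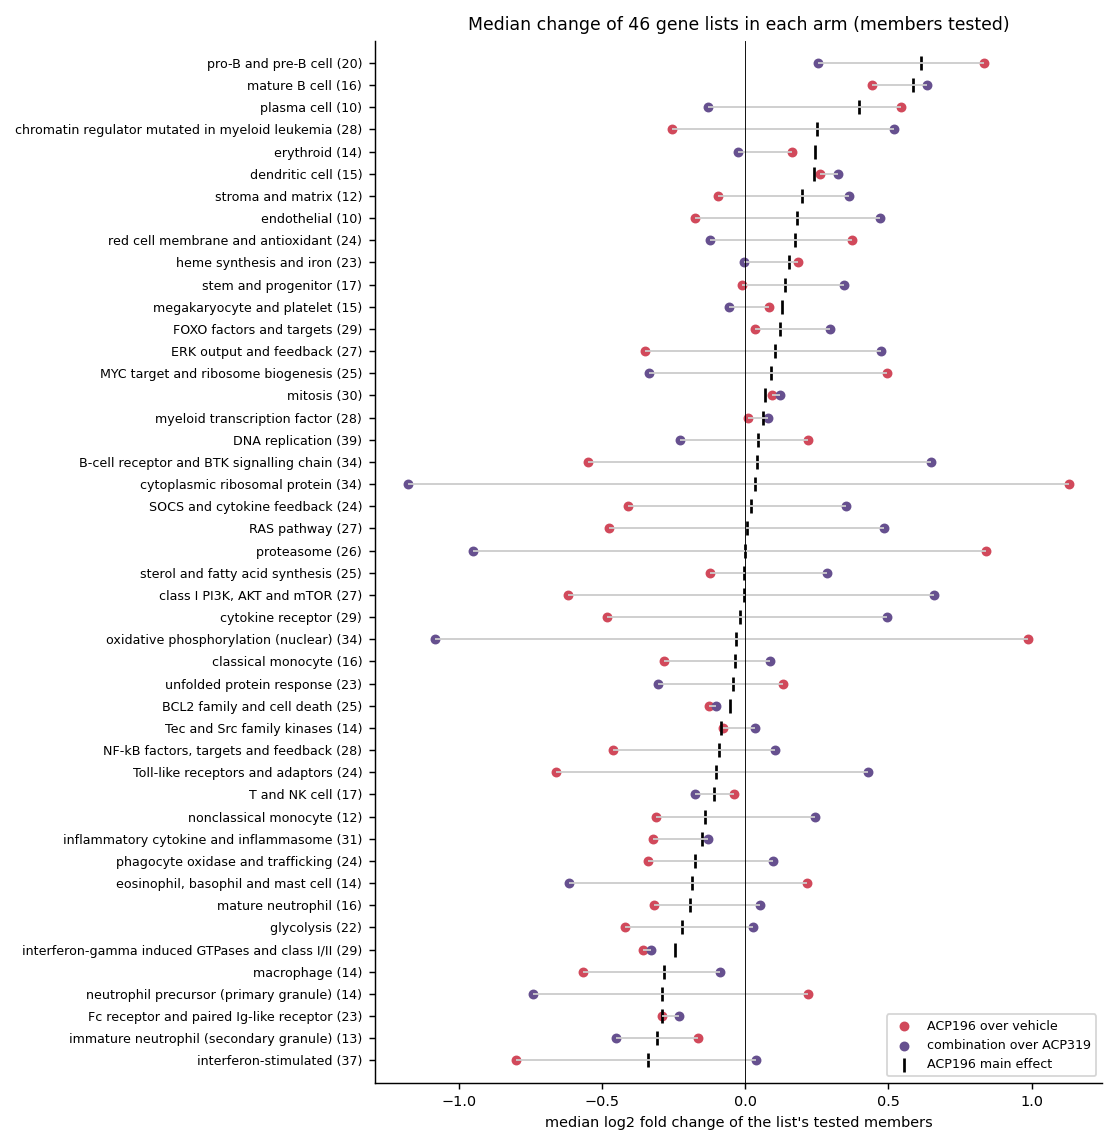
Median log2 fold change of the tested members (number in brackets) of 46 gene lists, for ACP196 over vehicle, the combination over ACP319 and the ACP196 main effect. The B-lineage lists stand at the top and the interferon-stimulated list at the bottom; ribosomal proteins, at 1.13 and -1.18, lie farthest apart in the arms with a main effect of 0.03.

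The genes with the smallest p for the difference between the arms were lower with ACP196 and higher with the combination. Arid5b, a DNA-binding partner of a histone demethylase, had 2.87, 5.45 and 8.42 CPM with ACP196, against 12.3, 16.2 and 10.5 with vehicle. It had 7.07, 9.78 and 10.4 CPM with the combination, against 3.27, 2.2 and 2.09 with ACP319. The groups did not overlap in either arm, in opposite directions, and the difference was 3.05 on the log2 scale (edgeR adjusted p = 0.0202). The other 4, Hip1, Dmxl2, Lrp1 and L1cam, had differences between 2.54 and 3.00.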

How the data were processed

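RNA of bone marrow mononuclear cells was made into full-length cDNA with a low-input SMART-Seq kit and tagmented libraries, per the labels' protocols, which does not mark strand. Reads were aligned with STAR and counted with featureCounts on mm10, per the submitters' processing notes, without version or settings in the sources used here. The authors deposited raw counts for each gene and specimen beside gene length. Every per-sample column was used. Specimens of a group differed from each other beyond the noise of sampling (chi-square over its degrees of freedom 20.5 to 633), and all were kept.

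The tools were edgeR 4.0.16 and limma 3.58.1 under R 4.3.3. Genes were kept by filterByExpr (smallest count 10, total count 15) and scaled by TMM. The main effect is the ACP196 coefficient of a model with ACP319 and ACP196 over 12 specimens (robust glmQLFit and glmQLFTest, Benjamini-Hochberg over all tested genes, threshold 0.05). Arms and their difference come from a group-means fit over the same specimens. CPM values are TMM-scaled, and standard errors come from the F statistic.

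Members, 49 gene lists and tests were chosen with earlier results of these data known. Lists are described by counts and medians, with no test. Named genes were, per direction, up to 10 with the largest change past the threshold, at least 2 log2 CPM, the same sign in both arms and no overlap within each arm, filled by smallest p; per list up to 4 passing members or the 2 of smallest p; the 5 of smallest p for the difference between arms; and Btk, Pik3cd and Ptpn11. Other genes given with values were singled out after their values were seen. A gene that the rule took is not reported here. Alternatives were DESeq2 1.42.0, limma voom, other scaling and filters, a group-means fit, no ACP319 term, a gene length offset (natural spline, 5 degrees of freedom per library), Y-linked presence, and leaving out Rn45s with hemoglobin genes or each specimen. The fits were tested on simulated counts in which the dependence on gene length did not differ between libraries, so that test does not cover this feature.

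Gene coordinates are the outer bounds given with the deposited counts, on mm10 (GRCm38), and promoters are from the RefSeq table for GRCm38.p6.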

Additional observations from a re-analysis of the deposited data

Results flagged for a closer look

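Effects of ACP196 that differed between the arms are listed here, as the log2 change of the combination over ACP319 minus that of ACP196 over vehicle. The edgeR test of this difference called 3522 genes at an adjusted p under 0.05. Named genes among them were Arid5b (3.05), Lrp1 (3.00), Hip1 (2.85), Dmxl2 (2.55), L1cam (2.54), C3ar1 (2.29), Kmt2a (2.27), Socs3 (1.73), Kmt2c (1.57), Rasa1 (1.41) and Pik3cd (1.13), all lower with ACP196 than with vehicle and higher with the combination than with ACP319, and Mzb1 (-2.72), which went the opposite way. The count was 1 with a gene length offset, and the part of gene length was not tested further.

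For 7 lists the list's mean level per specimen did not overlap in either arm, in opposite directions, and the difference was not tested. Their medians in the arm with ACP319 were 0.429 for Toll-like receptors and adaptors, 0.352 for SOCS and cytokine feedback, 0.486 for the RAS pathway, 0.659 for class I PI3K, AKT and mTOR, 0.496 for cytokine receptors, -1.18 for cytoplasmic ribosomal proteins and -1.08 for nuclear genes of oxidative phosphorylation. With the gene length offset these medians were, in the same order, 0.321, 0.0716, 0.146, 0.121, 0.135, -0.281 and -0.306.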

How the results depend on the processing

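No paired analysis was possible because the groups share no specimen number. The count of 0 genes called for the ACP196 main effect held under every alternative but limma voom with specimen weights, which called 7 higher and 11 lower, 14 with the same sign in both arms. The difference between the arms called 6726 genes with voom, 1 with the gene length offset (also in the group-means fit), 539 with the offset without ACP196 replicate 5, and 1 over 8 specimens (without ACP196 4 and 5 and ACP319 8 and 9, added after seeing the data); leaving out each specimen gave 0 to 5692, and Y-linked presence 2848. Genes without overlap in both arms numbered 6 higher and 8 lower; leaving out each specimen gave 6 to 89 and 8 to 70, the offset gave 5 lower, and the offset without ACP196 replicate 5 gave 19 higher. The Kmt2c difference between the arms was -0.21 with the length offset, -0.030 with the offset without ACP196 replicate 5 and -0.21 with the offset in the group-means fit; the cause was not tested. Of 675 values of 26 genes for the main effect 0 changed direction and 6 passed the threshold, of 312 values of 12 genes for the difference 112 no longer passed, and of 1222 list medians 10 moved by more than the spread between specimens. The median standard error of the main effect was 0.301, and it holds the spread between specimens, counting error and the difference between the arms. The 90th percentile of absolute main effects was 0.461, and differences near the standard error were not detectable.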
